A study of Mus musculus with 12 samples.

Results

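The mitochondrial ribosomal protein genes were taken as every row of the count table whose symbol begins with Mrpl or Mrps followed by a digit, and 77 of 14909 genes met this rule. Of these, 48 are named for the large subunit (Mrpl) and 29 for the small subunit (Mrps). The study set frontal cortex of Upf3b-null mice (KO, 5 mice numbered 1 to 4 and 6) against wild-type mice (WT, 7 mice), all on the C57BL/6 strain, with 1 bulk RNA sequencing library per mouse. The sources used here do not give the design of the null allele, or the sex and age of the mice. UPF3B is a protein of the exon junction complex and of nonsense-mediated decay, the pathway that removes transcripts with a premature stop codon, and its human gene is mutated in X-linked intellectual disability.

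The mitochondrial ribosome translates the few proteins that the mitochondrial genome encodes, all of them core parts of the respiratory chain and the ATP synthase. Its RNA is made in the organelle, while its proteins are encoded in the nucleus, made in the cytosol and imported. Some descend from bacterial ribosomal proteins and others occur only in mitochondria. Symbols do not follow the structure in every case: Mrps30 and Mrps18a sit in the large subunit, and Mrps36 is a subunit of the 2-oxoglutarate dehydrogenase complex rather than of the ribosome. A further large-subunit protein is listed in the table under its older symbol Ict1 and so lies outside the rule.

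The libraries held 4684039 to 5425774 counts in WT and 4990643 to 6617759 in KO, and of the KO libraries only KO 1 lay within the WT range. Upf3b itself had 157 to 219 counts in the WT libraries and 11 to 24 in the KO libraries, so the labels matched the targeted gene in all 12. The labels number separate mice and give no litter or preparation day. Cortical markers were present in both groups, with summed excitatory neuron markers at 1411 to 1755 CPM in WT and 1206 to 1716 CPM in KO (CPM, counts scaled to a common library size). Markers of neighbouring tissue varied more between libraries. Striatal markers summed to 186 to 667 CPM in WT and 261 to 614 CPM in KO, with 0 of 4 called. The choroid plexus marker Ttr ran from 2 to 354 counts and was not called. Microglial markers summed to 321 to 399 CPM in WT and 294 to 324 CPM in KO, with 2 of 4 called lower, and 2 of 3 endothelial markers were called higher. The part of cell composition in the results on ribosomal protein genes was not tested, and in bulk tissue fewer cells of a type cannot be told apart from less RNA per cell.

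To show what the genes share at their starts, promoter sequences from RefSeq (GRCm38.p6, 250 bases before to 50 after each start) were matched by symbol for 68 of the 77 genes. No promoter was matched for Mrpl4, Mrpl13, Mrpl15, Mrpl19, Mrpl38, Mrpl54, Mrps28, Mrps34 and Mrps35. Each window was searched on both strands for 3 motifs known from genes of mitochondrial proteins: the palindromic NRF1 motif, which reads the same on both strands, CCGGAAG for ETS factors such as GABPA, and AAGATGGC for YY1. The letters of the 3 motifs do not overlap one another in the promoters shown. At least 1 of the motifs was found in 36 of the 68 genes (52.9%). Of the 9 genes called lower in KO in each of 3 fits described later, 5 held a motif (Mrpl3, Mrpl32, Mrpl48, Mrps22 and Mrps33) and 4 did not (Mrpl23, Mrpl30, Mrpl40 and Mrps30). The promoters below show 4 genes with and 1 without a match from these 9, and Mrps10, the one gene that was called higher. Capitals mark the motif matches. They lie at chr9:105053018-105053317 on the plus strand (Mrpl3), chr6:39810887-39811186 on the minus strand (Mrps33), chr9:98601630-98601929 on the minus strand (Mrps22), chr13:14612988-14613287 on the minus strand (Mrpl32), chr1:37890227-37890526 on the plus strand (Mrpl30) and chr17:47368947-47369246 on the plus strand (Mrps10), each written 5′ to 3′ along its gene.
Mrpl3: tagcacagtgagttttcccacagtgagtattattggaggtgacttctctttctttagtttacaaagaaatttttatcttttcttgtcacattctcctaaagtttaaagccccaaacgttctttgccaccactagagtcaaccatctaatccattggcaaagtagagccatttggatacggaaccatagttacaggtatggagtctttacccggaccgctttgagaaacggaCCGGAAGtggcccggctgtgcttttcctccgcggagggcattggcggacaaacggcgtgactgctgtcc
Mrps33: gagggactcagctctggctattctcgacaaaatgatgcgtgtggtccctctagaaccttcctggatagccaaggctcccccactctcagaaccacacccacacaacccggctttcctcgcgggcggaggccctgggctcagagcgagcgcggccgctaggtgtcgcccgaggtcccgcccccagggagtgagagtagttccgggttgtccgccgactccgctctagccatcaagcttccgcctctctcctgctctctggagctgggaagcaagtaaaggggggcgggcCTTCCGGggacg
Mrps22: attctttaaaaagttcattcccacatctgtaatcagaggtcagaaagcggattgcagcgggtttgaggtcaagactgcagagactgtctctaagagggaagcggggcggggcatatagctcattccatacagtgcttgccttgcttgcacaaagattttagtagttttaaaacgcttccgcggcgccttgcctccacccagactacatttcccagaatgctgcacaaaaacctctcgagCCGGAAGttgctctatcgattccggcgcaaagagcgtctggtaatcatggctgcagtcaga
Mrpl32: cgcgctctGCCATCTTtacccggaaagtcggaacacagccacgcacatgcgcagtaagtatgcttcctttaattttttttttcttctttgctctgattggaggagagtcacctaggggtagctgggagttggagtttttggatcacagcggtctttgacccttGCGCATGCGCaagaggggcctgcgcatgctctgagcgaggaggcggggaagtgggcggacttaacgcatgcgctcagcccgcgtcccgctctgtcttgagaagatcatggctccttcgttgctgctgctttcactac
Mrpl30: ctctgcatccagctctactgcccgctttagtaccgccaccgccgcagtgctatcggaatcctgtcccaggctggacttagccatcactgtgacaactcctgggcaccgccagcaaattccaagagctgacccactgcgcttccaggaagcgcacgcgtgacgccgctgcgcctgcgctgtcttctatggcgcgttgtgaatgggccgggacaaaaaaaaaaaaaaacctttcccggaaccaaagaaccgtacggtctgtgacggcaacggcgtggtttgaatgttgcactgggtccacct
Mrps10: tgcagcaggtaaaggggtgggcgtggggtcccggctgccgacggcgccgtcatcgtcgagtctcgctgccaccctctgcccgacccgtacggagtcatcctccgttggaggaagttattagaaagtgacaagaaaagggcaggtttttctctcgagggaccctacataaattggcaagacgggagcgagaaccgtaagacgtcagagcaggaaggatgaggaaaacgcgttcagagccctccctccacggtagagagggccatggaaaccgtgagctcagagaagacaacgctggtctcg

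The ETS letters began 19 bases before the start of Mrpl3, 11 bases before that of Mrps22 and 38 bases after that of Mrps33, in the last case on the opposite strand. Mrpl32 held the NRF1 palindrome beginning 87 bases before its start and YY1 letters on the opposite strand 242 bases before it. Neither Mrps10 nor Mrpl30 held any of the 3 motifs in this window. A gene was counted once where any of its windows held a motif, as 3 of the 68 have more than 1. Of the 68 genes, 25 (36.8%) held the ETS letters, against 9.93% of all 27025 genes with a RefSeq promoter and 18.1% of the 10866 that were tested. The YY1 letters occurred in 12 (17.6%), against 3.19% of all and 4.90% of tested genes. NRF1 letters occurred in 3 (4.41%), all of the large subunit, against 1.07% and 2.20%. At least 1 motif was present in 22 of 42 large-subunit genes (52.4%) and in 14 of 26 small-subunit genes (53.8%). The share was 13.4% for all genes with a RefSeq promoter and 23.6% for tested genes. The ETS letters occurred in 7 of the 18 genes called lower in KO (38.9%) and in 18 of the other 50 (36.0%), the YY1 letters in 2 (11.1%) and 10 (20.0%), and the NRF1 letters in 1 (5.56%) and 2 (4.00%). These are counts of letters in fixed windows and show no binding.

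All 77 genes passed the filter on low counts, with 56 to 407 counts per gene and library. Per kilobase of exonic length, the median gene stood at 30.7 CPM for the large subunit and 25.6 CPM for the small subunit in WT, against 14.0 CPM for all tested genes. The highest WT level per kilobase in the large subunit was that of Mrpl41, at 51.7 CPM, and in the small subunit that of Mrps21, a homolog of a bacterial small-subunit protein, at 70.8 CPM. At the lower end stood Mrpl47, at 5.08 CPM per kilobase, and Mrps35, at 5.37 CPM per kilobase. Both low values divide by long annotated transcripts of 3364 and 4162 bases. Across the 77 genes, 19 have a coding transcript under 50% of the length used, so levels per kilobase of such genes depend on which transcript is in use.

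Of the 77 mitochondrial ribosomal protein genes, 58 were not called, 18 were called lower in KO cortex and 1 higher. Calls used edgeR's quasi-likelihood test at an adjusted p of 0.05. The shares were 23.4% lower and 1.30% higher, beside 14.4% and 15.3% of all 14274 tested genes. The share of all genes called lower varied with count density and is given by density group below. The fold change was below 0 on the log2 scale for 68 of the 77, with a median of -0.13, while the median of all tested genes was 0.034. Mean levels in KO ran from 80.0% of WT for Mrpl23 to 118% for Mrps10, and 0 genes changed by more than 1 on the log2 scale. A further 11 genes were lower with an adjusted p between 0.05 and 0.1. The share of all tested genes in that band is not given here, so this count cannot be set against the table. In 9 genes (11.7%) every KO library lay below every WT library, beside 4.80% of all tested genes, and in 0 did every KO library lie above, beside 5.84%. Those 9 were Mrpl3, Mrpl23, Mrpl30, Mrpl32, Mrpl40, Mrpl42, Mrps18a, Mrps21 and Mrps33, of which all but Mrps18a were called.

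**Figure D1:**
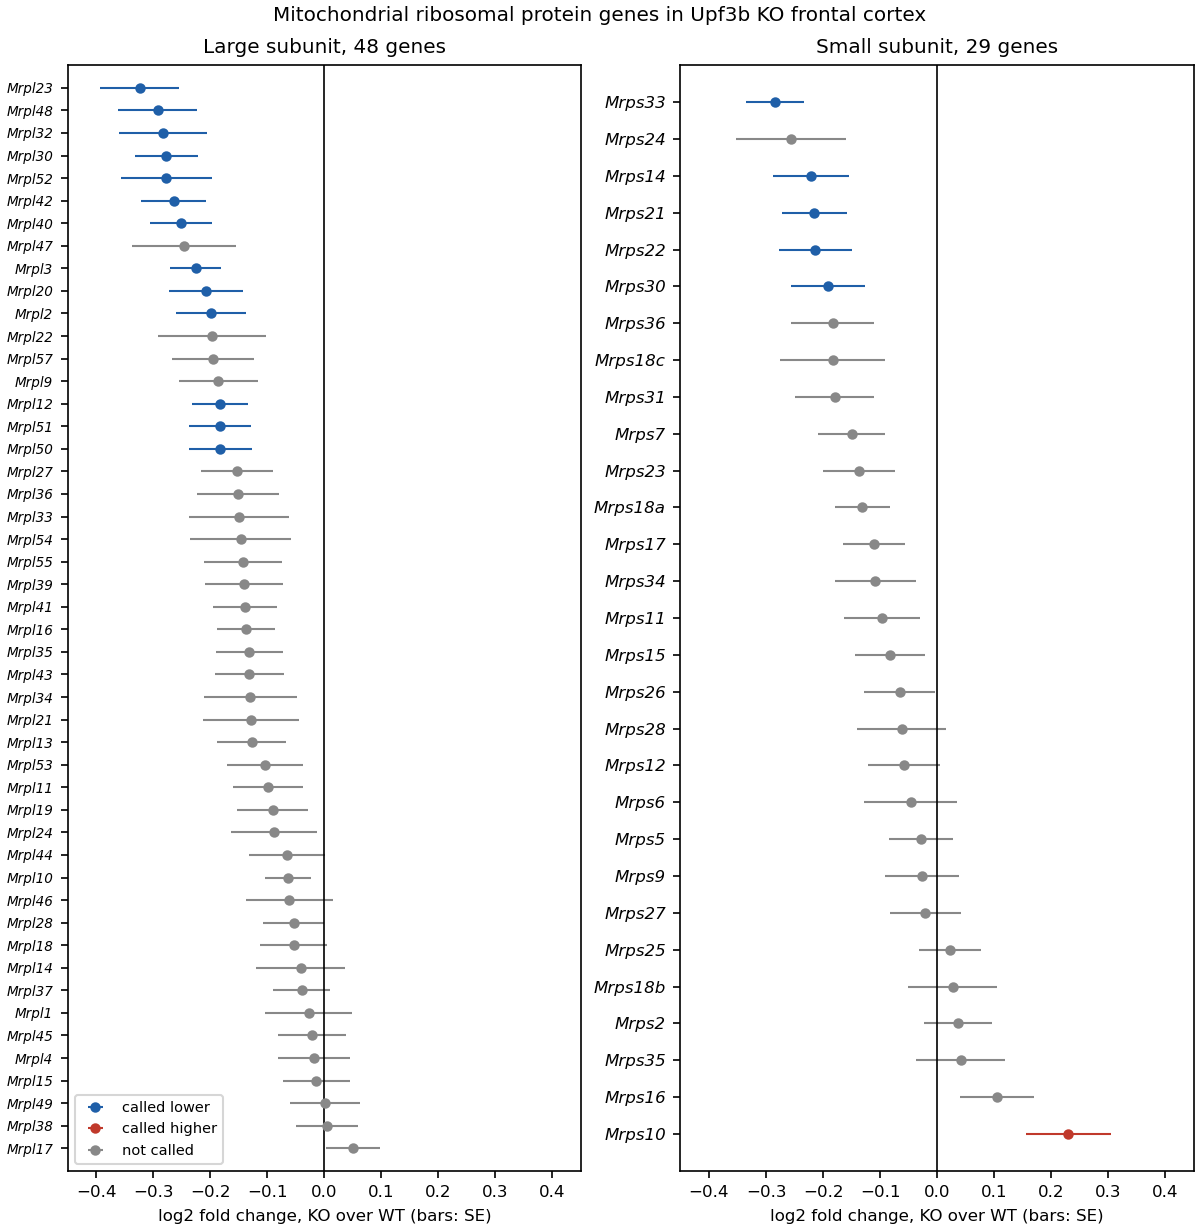
Log2 fold change of each gene, KO (n = 5) over WT (n = 7), with its standard error from edgeR, for the 48 large-subunit genes on the left and the 29 small-subunit genes on the right. Blue marks the 13 large-subunit and 5 small-subunit genes called lower, red the 1 called higher (Mrps10), and 45 large-subunit and 23 small-subunit genes lie left of 0.

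By subunit, 13 of 48 large-subunit genes (27.1%) and 5 of 29 small-subunit genes (17.2%) were called lower, beside 14.4% of all tested genes, so the small-subunit share lay near that of the table. The small-subunit count was 2 without KO 4, 8 without KO 1 and 9 without WT 4, while the large-subunit count stayed between 10 and 16 when any 1 library was left out. The share of all tested genes called in those fits is not given here. The median log2 fold change was -0.14 for the large and -0.097 for the small subunit, a difference of -0.041. As means over genes in each library, the difference averaged -0.048 in KO against the WT mean. Single libraries of 1 genotype varied in that mean difference with a pooled standard deviation of 0.024. No large-subunit gene was called higher by edgeR (0 at an unadjusted p of 0.05, and 0 by DESeq2). Moved to their structural places, with Mrps30 and Mrps18a counted in the large subunit and Mrps36 left out, the counts became 14 and 4 and the medians -0.14 and -0.074. Among large-subunit genes, 7 of the 30 with bacterial counterparts and 6 of the other 18 were called lower, with medians of -0.13 and -0.14. Among small-subunit genes, 2 of 16 with bacterial counterparts were lower and 1 higher, with a median of -0.072, and 3 of the other 13 were lower, with a median of -0.13. Those 13 hold Mrps36 and the S18 paralogs Mrps18a and Mrps18b beside proteins that occur only in mitochondria. No difference between these classes was tested, since their genes share the same 12 libraries.

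Summed over its 48 genes, the large subunit stood at 1674, 1638, 1705, 1639 and 1670 CPM in KO 1, 2, 3, 4 and 6, and at 1735, 1780 and 1936 CPM for the lowest, median and highest WT library. The groups did not overlap, with means of 1665 ± 27.9 CPM (SD, n = 5) and 1816 ± 83.6 CPM (SD, n = 7). The small subunit summed to 983, 921, 962, 927 and 961 CPM in the same KO libraries and to 966, 990 and 1095 CPM for the lowest, median and highest WT library. Here KO 1 lay above WT 4 and WT 7, while the other 4 KO libraries lay below all 7 WT libraries. The ratio of large to small was 1.70, 1.78, 1.77, 1.77 and 1.74 in KO and ran from 1.76 over 1.80 to 1.82 in WT. Its groups overlapped, with means of 1.75 ± 0.032 (SD, n = 5) and 1.80 ± 0.025 (SD, n = 7), and KO 1 had the lowest ratio of all.

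**Figure D2:**
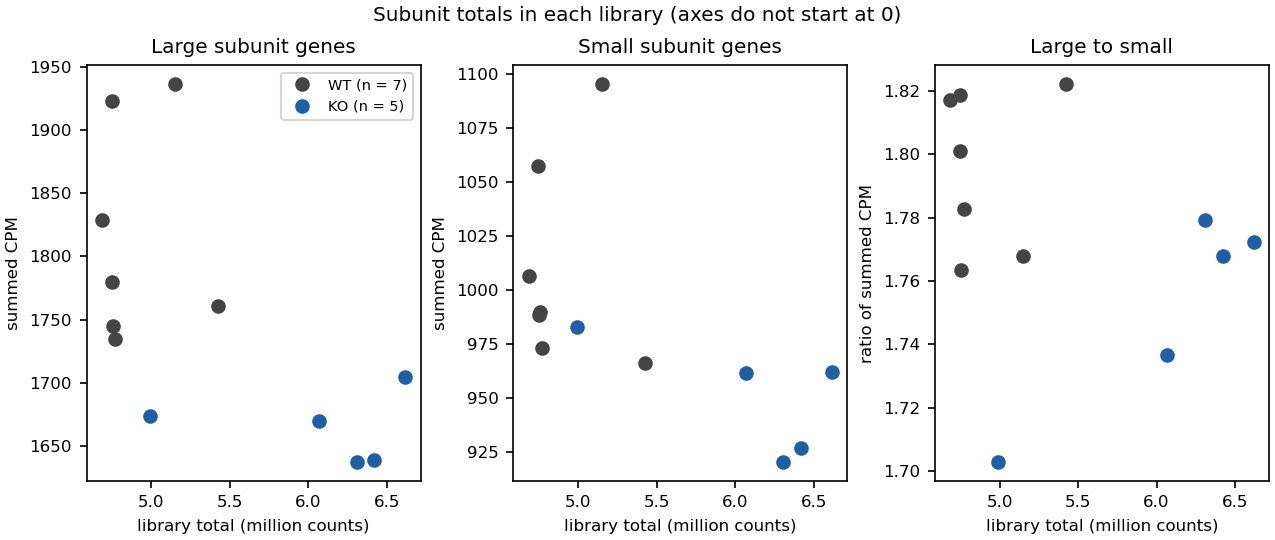
Summed CPM of the large-subunit genes (left), of the small-subunit genes (middle) and their ratio (right), each point 1 library, against the total counts of its library; the vertical axes do not start at 0. The 5 KO libraries lie between 1638 and 1705 CPM for the large subunit, below all 7 WT libraries, while the small-subunit sums and the ratio overlap between genotypes.

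WT 1 and WT 2 had the highest levels of these genes, at 0.299% and 0.312% of their counts, beside 0.265% to 0.283% in the other WT libraries and 0.260% to 0.272% in the KO libraries. WT 3, at 0.272%, and KO 3, at 0.272%, lay close together in that share. In a fit without WT 1 and WT 2, added once their levels had been seen, 8 genes were called lower (10.4%; 7 large, 1 small) and 1 higher, beside 11.2% and 11.3% of all tested genes, so the share called lower no longer exceeded that of the table. The 8 were Mrpl3, Mrpl12, Mrpl23, Mrpl30, Mrpl40, Mrpl42, Mrpl48 and Mrps33. Between 40 and 45 of the 48 large-subunit genes stood below their WT mean in the KO libraries, and 3 to 38 did so in the WT libraries, with 38 in both WT 6 and WT 7. Of the 29 small-subunit genes 18 to 23 did so in KO and 2 to 23 in WT, so those counts overlapped.

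**Figure D3:**
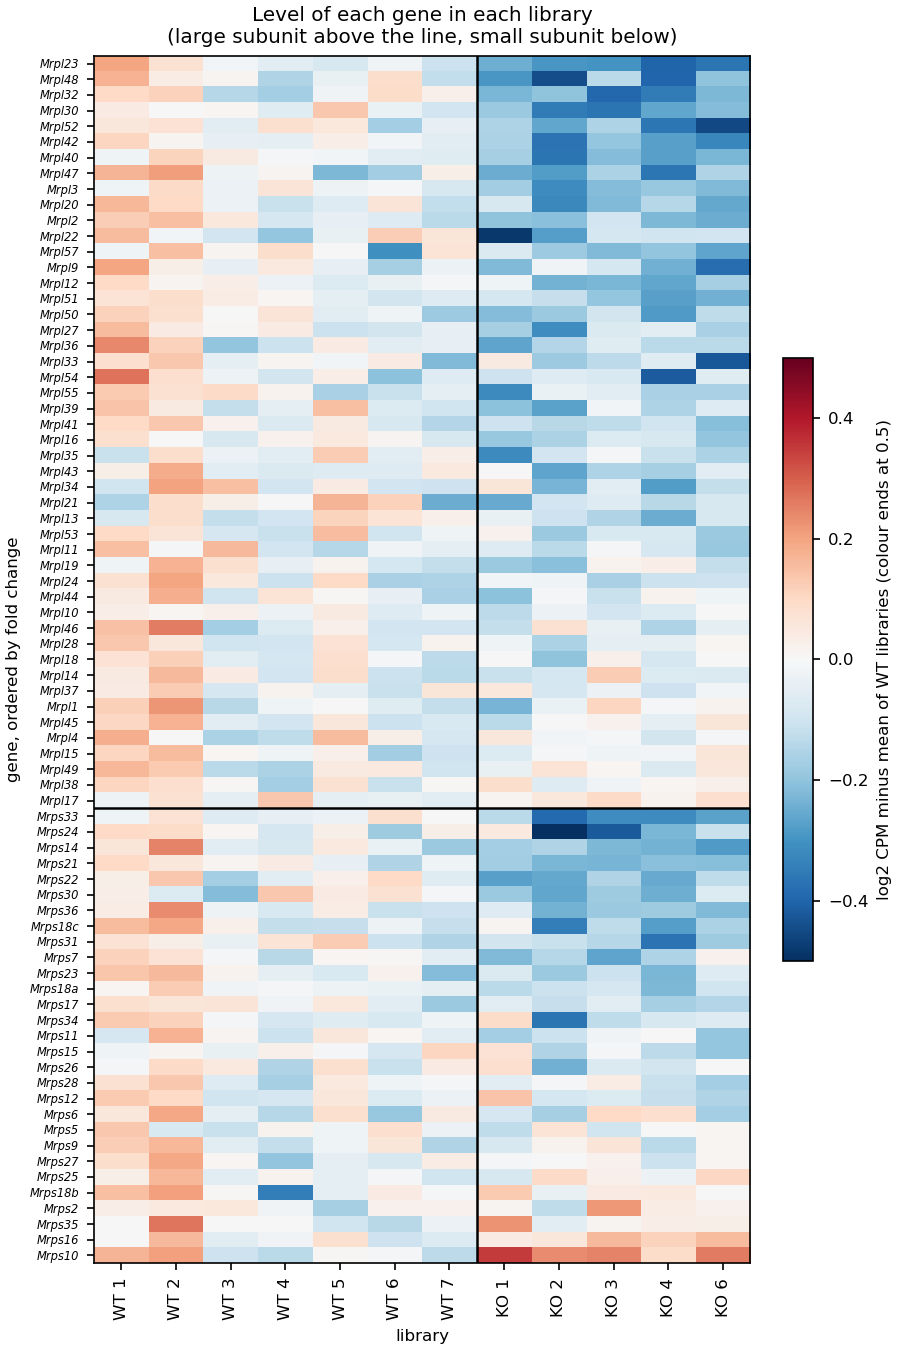
Log2 CPM of each gene (rows, ordered by fold change within each subunit) in each library (columns), minus the mean of the 7 WT libraries; blue is lower and red is higher, and colours end at 0.5. WT 1 and WT 2 are the reddest WT columns, KO columns are mostly blue in the upper part of each block, and the bottom row, Mrps10, is red in all 5 KO libraries.

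Among large-subunit genes with bacterial counterparts, Mrpl30 (chr1:37890477-37898535, mm10) had the smallest p. Its level in KO was 37.0, 33.0, 32.7, 35.1 and 36.2 CPM, and in WT it ran from 39.4 over a median of 42.1 to 46.2 CPM. Every KO library was below every WT library, and the log2 fold change was -0.28 ± 0.055 (SE; edgeR adjusted p = 0.00221). Mrpl3 (chr9:105053239-105079888), whose protein reaches toward the peptidyl transferase centre, stood at 51.7, 46.8, 50.1, 51.1 and 50.1 CPM in KO. In WT it ran from 55.2 over 57.4 to 62.3 CPM, again without overlap, for a fold change of -0.23 ± 0.045 (SE; edgeR adjusted p = 0.00237). Mrpl23 (chr7:142532686-142540747) encodes a protein at the exit of the tunnel through which new chains leave. It had 20.5, 19.8, 19.7, 18.3 and 18.8 CPM in KO and 22.5, 23.9 and 27.7 CPM for the lowest, median and highest WT library. The groups were separate, and at -0.32 ± 0.069 (SE; edgeR adjusted p = 0.00338) this was the lowest fold change of the 77. Mrpl32, which is cleaved by the m-AAA protease before it enters the ribosome, ran from 15.7 to 17.9 CPM in KO and from 18.3 to 22.3 CPM in WT. These ranges come close but do not touch, and its fold change was -0.28 ± 0.077 (SE; edgeR adjusted p = 0.0133).

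Mrpl42, Mrpl40 and Mrpl48 encode large-subunit proteins found only in mitochondria. Mrpl42 stood at 28.6, 24.7, 28.0, 26.5 and 25.5 CPM in KO and from 30.8 over 31.6 to 34.5 CPM in WT, a fold change of -0.26 ± 0.057 (SE; edgeR adjusted p = 0.00364) with no overlap. Mrpl40, a gene of the human chromosome segment lost in DiGeorge syndrome, stood at 29.5, 25.7, 28.4, 27.4 and 28.2 CPM in KO. Its WT libraries ran from 31.7 over 32.7 to 35.7 CPM, all above KO, and it changed by -0.25 ± 0.055 (SE; edgeR adjusted p = 0.00385). Mrpl48 was lower by a similar amount, -0.29 ± 0.070 (SE; edgeR adjusted p = 0.00620), with 1 KO library, KO 3 at 42.4 CPM, inside the WT range that began at 42.0 CPM. Its exons overlap those of Rab6a on the opposite strand, which itself fell by 0.38 on the log2 scale. As no source used here states a strand setting for the counting, reads of the pair cannot be told apart.

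The stalk of the large subunit, where translation factors bind, holds several copies of the Mrpl12 protein. Mrpl12 stood at 61.0, 52.6, 52.8, 51.7 and 55.2 CPM in KO and from 59.0 over 61.4 to 66.2 CPM in WT. Only KO 1 reached the WT range, and the fold change was -0.18 ± 0.049 (SE; edgeR adjusted p = 0.0119). Mrpl10 and Mrpl11, at the base of the stalk, had fold changes of -0.064 and -0.098 that did not pass (edgeR adjusted p = 0.293 and 0.238). Mrpl45, next to the tunnel exit and in contact with the inner membrane, was at -0.022 (edgeR adjusted p = 0.810), Mrpl41 at -0.14 (edgeR adjusted p = 0.0755) and Mrpl47, with a bacterial counterpart near the tunnel exit, at -0.25 (edgeR adjusted p = 0.0536). The other large-subunit genes called lower were Mrpl2, Mrpl20, Mrpl50, Mrpl51 and Mrpl52, with fold changes from -0.28 to -0.18.

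**Figure D4:**
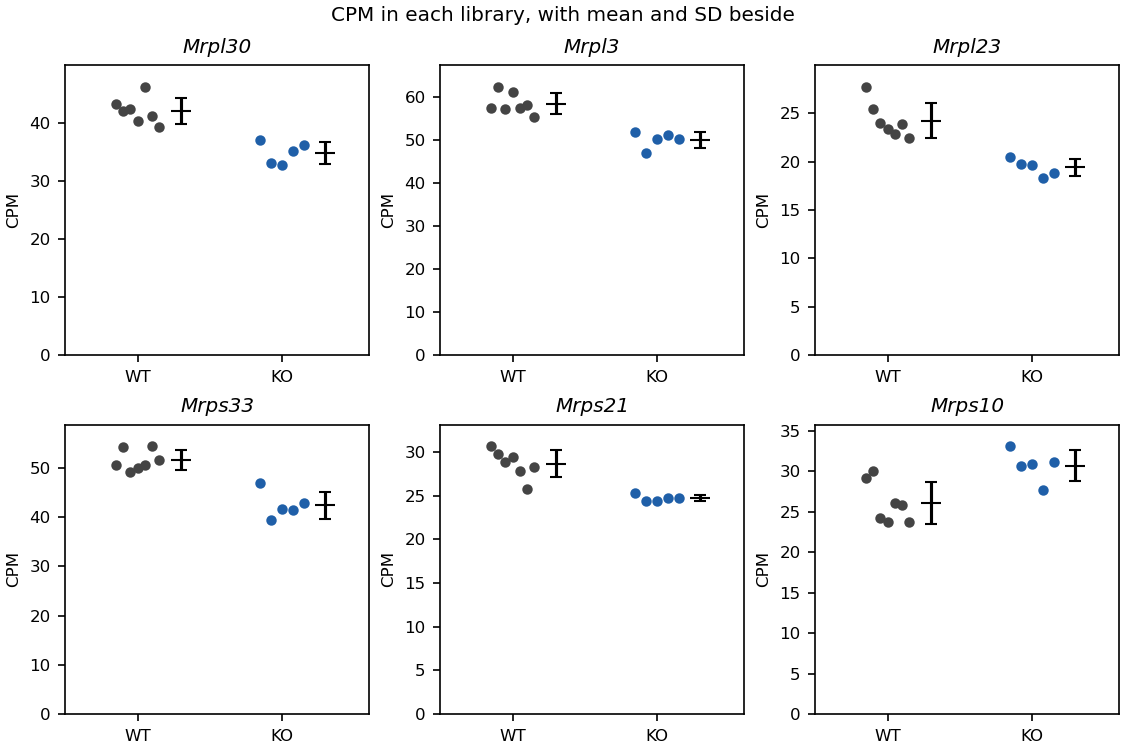
CPM of 6 genes in each library, with the mean and SD beside each group (WT grey, n = 7; KO blue, n = 5); all vertical axes start at 0. For Mrpl30, Mrpl3, Mrpl23, Mrps33 and Mrps21 all KO points lie below all WT points, and for Mrps10 most KO points lie above, with KO 4 at 27.7 CPM inside the WT range.

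In the small subunit Mrps33 (chr6:39801804-39810988), a protein of the subunit's head found only in mitochondria, had the smallest p of all 77 genes. It stood at 46.8, 39.4, 41.6, 41.4 and 42.8 CPM in KO and from 49.2 over 50.7 to 54.4 CPM in WT. The groups did not overlap and the fold change was -0.28 ± 0.051 (SE; edgeR adjusted p = 0.00135). Mrps21 stood at 25.4, 24.4, 24.4, 24.8 and 24.7 CPM in KO and from 25.8 over 28.9 to 30.7 CPM in WT. KO 1 came within 1 CPM of the lowest WT library, and the fold change was -0.22 ± 0.057 (SE; edgeR adjusted p = 0.0111). Mrps22, mutated in a human mitochondrial disease, stood at 24.7, 25.0, 26.9, 25.1 and 27.3 CPM in KO and from 26.5 over 30.4 to 32.8 CPM in WT. KO 3 and KO 6 lay inside the WT range, for a fold change of -0.21 ± 0.064 (SE; edgeR adjusted p = 0.0209). Mrps14 and Mrps30 were also called lower, at -0.22 ± 0.067 and -0.19 ± 0.065 (SE; edgeR adjusted p = 0.0222 and 0.0367), each with overlapping groups.

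Mrps10 (chr17:47368887-47381417), which encodes the counterpart of a bacterial protein of the small-subunit head, was the only gene called higher. It stood at 33.1, 30.6, 30.9, 27.7 and 31.1 CPM in KO and from 23.7 over 25.8 to 30.0 CPM in WT. The highest WT libraries, WT 1 and WT 2, overlapped the lowest KO library, KO 4. The fold change was 0.23 ± 0.074 (SE; edgeR adjusted p = 0.0294). The call held in 5 of 12 fits that left out 1 library, and the fold change stayed between 0.19 and 0.27 in them. It was lost when any of KO 1, KO 2, KO 3, KO 6, WT 3, WT 4 or WT 7 was left out and with DESeq2, and over all other settings its adjusted p ran from 0.00721 to 0.277.

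Other small-subunit genes gave values that did not pass. Mrps12, whose protein lies at the decoding centre, was at -0.058 (edgeR adjusted p = 0.511), Mrps16, mutated in a human disorder of oxidative phosphorylation, at 0.11 (edgeR adjusted p = 0.276), Mrps6 at -0.046 (edgeR adjusted p = 0.698) and Mrps35 at 0.041 (edgeR adjusted p = 0.766). The 3 paralogs of bacterial S18 differed in value, with Mrps18a at -0.13, Mrps18b at 0.027 and Mrps18c at -0.18 (edgeR adjusted p = 0.0567, 0.822 and 0.147). For Mrps18a the groups were separate, with KO from 37.1 to 41.0 CPM and WT from 41.9 to 47.4 CPM. Mrps36, the dehydrogenase subunit, was at -0.18 (edgeR adjusted p = 0.0664), within the range of the ribosomal genes.

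Fold changes over the whole table moved with count density, the mean count per base of exon. Over 10 equal groups of genes by density, the median fell from 0.25 in the sparsest to -0.18 in the densest on the log2 scale, and 52 of the 77 mitochondrial ribosomal protein genes fell in groups 7 to 9. Shares of all genes called lower without offsets also varied, at 9.78%, 16.9% and 30.8% in groups 7 to 9. The family had 2 of 11, 2 of 17 and 7 of 24 called lower there. In groups 3 to 5 the shares were 2.20%, 3.33% and 4.46%. There 1 of 5, 3 of 8 and 2 of 7 of the family were called lower. In groups 6 and 10 the shares were 5.32% and 67.5%, with 0 of 3 and 1 of 2 of the family. Compared with the median fold change of their own group, 65 of the 77 were lower, 41 of the large and 24 of the small subunit. A fit with offsets for this trend called 18 genes lower and 1 higher, beside 8.27% and 8.41% of all tested genes, and 12 of the 18 were also called without offsets. The medians became -0.10 for the large and -0.090 for the small subunit. Mrps21, the gene with most counts per kilobase among the small-subunit genes, changed by -0.22 without and by -0.038 with offsets and was no longer called, nor were Mrpl2, Mrpl12, Mrpl20, Mrpl42 and Mrpl52.

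Because long annotated untranslated ends lower the density of some genes, the offsets were also computed by coding length, which was added after the first offsets had been seen. That fit called 16 genes lower (20.8%) and 1 higher, beside 8.81% and 8.49% of all tested genes, with medians of -0.090 for both subunits. Called lower in all 3 fits were 9 genes, 6 of the large subunit (Mrpl3, Mrpl23, Mrpl30, Mrpl32, Mrpl40 and Mrpl48) and 3 named for the small subunit (Mrps22, Mrps30 and Mrps33). The share of all tested genes called lower in all 3 is not given here, and the 3 fits share the same 12 libraries. In the plain fit without WT 1 and WT 2, 6 of the 9 were called lower, and Mrpl32, Mrps22 and Mrps30 were not. Mrps22 and Mrps30 also missed the threshold in at least 1 of the fits that left out 1 library. Mrps10 was called higher in all 3 fits of the 12 libraries. The gap between the subunits' medians was -0.041 without offsets, -0.013 with density offsets and 0.00061 with offsets by coding length. As means over genes against the WT mean, the gap in KO changed less with density offsets. It was -0.048 ± 0.029 (SD, n = 5) without and -0.041 ± 0.032 (SD, n = 5) with them. With density offsets the KO libraries ran from -0.092 to -0.010 and the WT libraries from -0.023 to 0.024. The size of the gap thus depended on the measure and on the scaling.

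**Figure D5:**
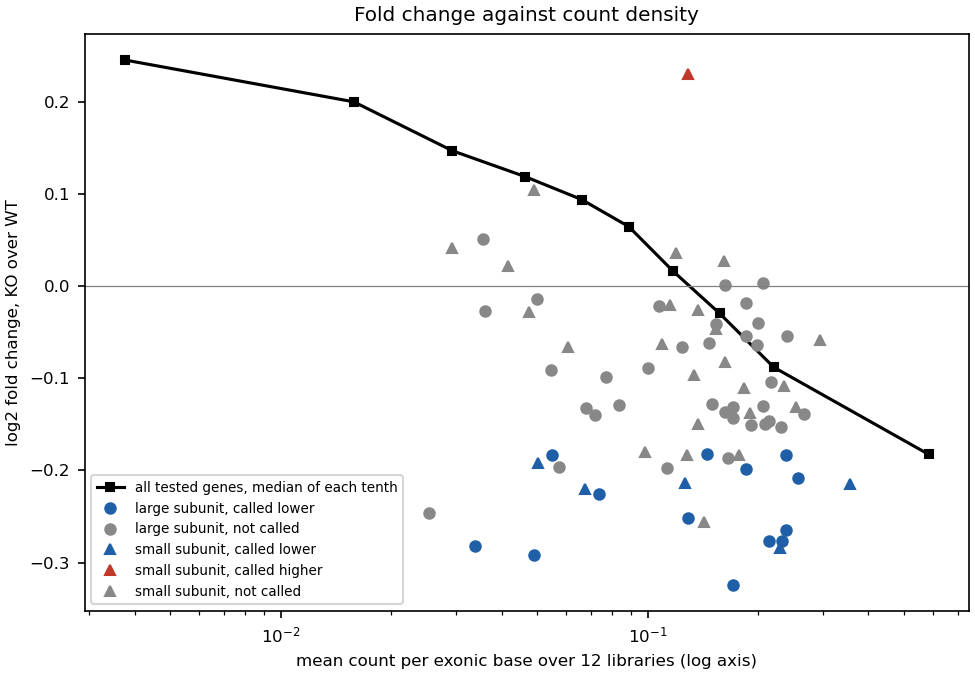
Log2 fold change of each gene, KO over WT, against its mean count per exonic base over 12 libraries (log axis), with circles for the large and triangles for the small subunit. The black line joins the medians of 10 equal groups of all tested genes, from 0.25 to -0.18, and 65 of the 77 genes lie below the median of their own group.

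Library totals differed between genotypes, as 4 of 5 KO libraries were larger than every WT library. With the log2 library total as a covariate edgeR called 0 of the 77 genes in either direction, beside 0.0771% lower and 0.588% higher of all tested genes. At an unadjusted p of 0.05, 8 genes (10.4%) were lower and 1 higher in that fit, beside 5.67% and 7.40% of all tested genes. Fold changes stayed below 0 for 63 of the 77, with medians of -0.15 for the large and -0.073 for the small subunit, while the median standard error rose from 0.064 to 0.11. KO 1, the one KO library of WT size, stood against the WT mean at a median of -0.13 for the large and -0.068 for the small subunit, beside 0.0019 for all tested genes. As a mean over genes, KO 1 stood at -0.13 for the large subunit, outside the WT range of -0.068 to 0.10, and at -0.034 for the small subunit, inside the WT range of -0.067 to 0.12. The parts of genotype and library total cannot be told apart.

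Other settings moved the counts as well. With cyclic loess offsets 36 genes were called lower, beside 15.1% of all tested genes, and with DESeq2 20, beside 15.3%. Without KO 2 and WT 4, libraries that an earlier look at these data had singled out, 19 were lower, beside 15.4%, and with the mouse number as a block 10, beside 8.27%. Mrps10 missed the threshold in each of these 4 fits, in which 13.2%, 11.9%, 15.2% and 7.94% of all tested genes were called higher, with fold changes between 0.17 and 0.21.

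Annotation was set beside the calls. Of the 77 genes, 18 have an annotated transcript marked as a target of nonsense-mediated decay, and 6 of those were called lower, with a median log2 fold change of -0.13. Of the other 59 genes, 12 were called lower and 1 higher, also with a median of -0.13. Exons of 23 genes overlap those of another coding gene, among them 2 that were called lower, Mrpl48 and Mrps30. Mrpl44, at -0.065, overlaps Wdfy1 on the opposite strand, which was 1.51 higher in KO on the log2 scale. Mrps11 and Mrpl46 overlap each other, and 5 pseudogenes are named after genes of the family.

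Genes that work with the mitochondrial ribosome were set beside its proteins, from lists of known roles. Of 6 tested ribosomal proteins with other symbols, 2 fell (33.3%, beside 14.4% of all tested genes), and the list's median was -0.15. They were Chchd1, by 0.29, and Dap3, a GTP-binding small-subunit protein, by 0.14 on the log2 scale (edgeR adjusted p = 0.0137 and 0.0260). Of 27 assembly factors, 1 fell and 5 rose, with a median of 0.049; these are 3.70% and 18.5% of the list, beside 14.4% and 15.3% of all tested genes. Mettl17, needed for small-subunit assembly, rose by 0.65, Trub2, a pseudouridine synthase, by 0.38 and Rpusd3 of the same enzyme family by 0.30 (edgeR adjusted p = 0.00112, 0.00183 and 0.0301). Among 17 translation factors 2 fell (11.8%) and 1 rose (5.88%), so neither share exceeded the 14.4% and 15.3% of all tested genes. Pdf, the peptide deformylase, changed by -0.18, Slirp, an RNA stabiliser, by -0.31 and the initiation factor Mtif2 by 0.16 (edgeR adjusted p = 0.0184, 0.0204 and 0.0426). Of 22 genes that charge mitochondrial tRNAs, synthetases and the amidotransferase subunits Qrsl1, Gatb and Gatc, 1 fell (4.55%) and 5 rose (22.7%), with Vars2 at 0.36, Tars2 at 0.24 and Wars2 at 0.55, and the list's median was 0.070. The one that fell, Gars, also serves as the cytosolic enzyme. Polrmt, the mitochondrial RNA polymerase, was 0.21 higher, the only call among 6 transcription genes (16.7%, near the 15.3% of all tested genes).

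These lists also differ in density: the median WT level per kilobase was 28.7 CPM for the 77 genes, 12.2 CPM for assembly factors and 11.4 CPM for the tRNA charging genes. With density offsets 2 assembly factors were called lower and 4 higher, with a median of 0.0089, and 2 tRNA charging genes lower and 2 higher, with a median of 0.0081. Chchd1, Rpusd3, Pdf, Mtif2, Tars2, Gars and Polrmt were no longer called with these offsets, while Dap3, Mettl17, Trub2, Slirp, Vars2 and Wars2 were. In the denser direction, cytosolic ribosomal proteins stood at 42.7 CPM per kilobase and complex I subunits at 57.3 CPM per kilobase. Of these, 67 of 78 (85.9%) and 37 of 44 (84.1%) were called lower, beside 14.4% of all tested genes, with medians of -0.32 and -0.26. With density offsets 51 (65.4%) and 16 (36.4%) were, beside 8.27%, with medians of -0.22 and -0.13. Differences between lists were not tested.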

How the data were processed

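The deposited table holds raw counts of reads per gene and library, whole numbers that the authors neither normalized nor pooled. Total RNA came from frontal cortex of 12 mice, per the labels' protocols. STAR and mm10 are named per the submitters' processing notes; the sources used here do not give the counter, its strand setting or how duplicates were handled. Of 14909 genes, 14274 passed filterByExpr and were fitted together with edgeR 4.0.16 in R 4.3.3 (TMM factors, quasi-likelihood test, genotype as the only term, Benjamini-Hochberg adjustment over all tested genes, threshold 0.05). The biological coefficient of variation was 8.11%. CPM use TMM-scaled totals. Adjusted p-values in the text are from this fit unless other settings are named. Lengths are unions of GENCODE M21 exons of transcripts paired with each RefSeq accession. Density offsets came from a loess of log counts on count per exonic base in each library (span 0.3, pseudocount 0.5 counts).

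The members and gene lists were chosen with earlier results of these data known. Genes described singly were, in each subunit, the 5 called lower and 3 called higher with the smallest p, the highest and lowest per kilobase, and 15 fixed by role, of which Mrpl58 has no row of that symbol; of other lists, up to 3 called. Mrpl32, Mrpl44, Mrpl48 and Gars were chosen after their values were seen. Other settings were DESeq2 1.42.0, limma-voom (limma 3.58.1), other size factors and filters, a replicate block, offsets, a library-total covariate and left-out libraries. The plain and density-offset fits were tried on simulated counts with known changes put in. Those changes were larger than any seen in the members, and the simulated counts held no density trend. That check therefore does not cover changes as small as those described here. Replicate numbers are not said to mark a shared animal, litter or day, and correlations between libraries cannot settle it, so the block is given as an alternative.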

Additional observations from a re-analysis of the deposited data

Results flagged for a closer look

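A sample far from the rest of its group occurred in 5 cases among the genes described singly, of which 25 were named by rule, each with a WT and a KO group. Chance alone puts about 1 in 20 independent groups past this limit. The genes share their libraries and WT 2 recurs below, so the cases are not independent. Mrps35 stood at 26.8 CPM in WT 2, with the other WT libraries from 20.2 to 22.3 CPM, and at 26.0 CPM in KO 1, with the other KO libraries from 21.5 to 22.8 CPM. Mrps12 stood at 44.4 CPM in KO 1, against 36.2 to 38.3 CPM in the other KO libraries. Mrps18a stood at 47.4 CPM in WT 2, against 41.9 to 43.7 CPM, and Mrps36 at 28.7 CPM in WT 2, against 22.6 to 25.0 CPM in the other WT libraries. WT 2 also had the highest summed level of the 77 genes, and none of these 4 genes passed the test.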

How the results depend on the processing

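The 18 genes called lower became 36 with cyclic loess offsets (25 large, 11 small), 0 with the library total as a covariate (0 and 0), and 8 without WT 1 and WT 2 (7 and 1). The small-subunit count of 5 became 10 with DESeq2 size factors and 9 without a filter. The shares of all tested genes called in these settings, and in the fits without 1 library, are not given here. Those counts alone do not tell whether the family moved apart from the table. The 1 gene called higher became 0 with the DESeq2 Wald test, cyclic loess, the library-total covariate and without KO 2 and WT 4. The cause of these changes was not tested. Leaving out 1 library gave 12 to 23 genes lower (large 10 to 16, small 2 to 9) and 0 to 1 higher (large 0, small 0 to 1); the small-subunit count was 2 without KO 4, 8 without KO 1 and 9 without WT 4. Medians ranged from -0.16 to -0.12 (large) and -0.13 to -0.075 (small), and their difference from -0.059 to -0.018. The large-subunit median was -0.19 with cyclic loess, and the difference was -0.077 with the library-total covariate, -0.013 with density offsets and 0.00061 with offsets by coding length. All 18 calls held in edgeR with DESeq2 or upper-quartile factors, by DESeq2 and by limma-voom, and 11 in every fit without 1 library.

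With the replicate number as a block, over the 10 libraries whose numbers occur in both groups, 10 genes were lower (8 large, 2 small) and 0 higher, against 18 and 0 in the same libraries without the block. The block fit called 8.27% of all tested genes lower and 7.94% higher, and the shares without the block are not given here. Deviations of same-numbered libraries from their group means correlated between -0.38 and 0.14. Those of KO 2 and WT 4, which differ in number, correlated at 0.51. Such correlations cannot tell whether the numbers mark a shared litter or day.

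Of the genes that did not pass, some changed sign: Mrps35 was -0.11 with density offsets, -0.055 by coding length and -0.030 with cyclic loess, Mrpl10 0.0090 and 0.012 with the 2 offsets, Mrps12 0.083 and 0.035 with them and 0.094 with the library-total covariate, Mrps16 -0.012 with density offsets, Mrpl45 0.038 and Mrps6 0.0064 without WT 1 and WT 2, and Mrps18b -0.021 with cyclic loess and -0.023 without KO 2 and WT 4. Without 1 library Mrps35 ranged from -0.00092 to 0.092, Mrpl45 from -0.053 to 0.010 and Mrps18b from -0.042 to 0.064. Leaving out WT 1 and WT 2 and using coding length were chosen after seeing the data. With 56 to 407 counts per gene and library, the median standard error of a fold change was 0.064 on the log2 scale.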
